A study of Mus musculus with 20 samples.

Results

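The 43 genes described here encode factors of the complement and coagulation systems of the mouse, and they were taken by name from a count table of 55401 genes measured in 5 organs (liver, kidney, spleen, heart, and small intestine) of wild-type (WT) and Nsun6-knockout (KO) animals. All 43 names matched 1 row each. Nsun6 is a methyltransferase that places 5-methylcytosine on RNA. Both genotypes were female mice of 8 weeks on a C57BL/6J background without any treatment, and the KO strain carries a CRISPR/Cas9 deletion of exons 3 and 4 of Nsun6 in every cell of the body. There were 2 WT and 2 KO libraries for each organ, 20 in all, prepared from polyadenylated RNA of dissected and snap-frozen tissue. The replicates are described as biological, but the sources used here do not say whether 1 animal gave several organs, and libraries were treated as independent. Total counts per library ranged from 15897446 in heart KO replicate 1 to 44508197 in liver KO replicate 2, with a median of 28513950.

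Complement is a cascade of plasma proteins that marks microbes and dying cells. It starts from C1q bound to antibody, from mannose-binding lectins, or from spontaneous activation of C3, and it ends in a membrane pore of C5 to C9. Coagulation is a second cascade of proteases, in which tissue factor with factor VII, or the contact system, leads to thrombin, fibrin, and the crosslinking of fibrin by factor XIII. Hepatocytes secrete most of these plasma proteins, whereas macrophages, endothelial cells, and other cells make particular members in place.

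Nsun6 itself was first checked in every library. Its level, in TPM (counts divided by the exon length of the gene and scaled to the same sum in each library), was 5.48 and 2.70 in the WT and 5.59 and 2.44 in the KO small intestine, with 2.86 and 1.45 against 1.24 and 1.37 for the liver and 4.84 and 3.42 against 2.91 and 4.88 for the spleen. It was 4.09 and 2.57 against 2.26 and 1.90 for the kidney, and 3.11 and 3.74 against 2.41 and 3.27 for the heart. The genotypes were separated in the liver and the kidney and overlapped in the small intestine, the spleen, and the heart. The counts cover all exons of the gene, most of which lie outside the deletion, so that these values check no genotype label, and a sequence-level check was not made here.

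The liver was the main source of the factors. The summed TPM of the 43 members was 20743 and 26680 in the WT and 24730 and 24325 in the KO liver, which was 2.43 to 3.18% of all counts. The spleen had a sum of 2405 and 3105 in WT and 2563 and 2050 in KO, the kidney one of 796 and 937 against 843 and 973, and the heart one of 809 and 1084 against 830 and 977. The small intestine was lowest, with 244 and 267 in WT and 232 and 466 in KO. A TPM of 1 or more in all 4 libraries of an organ was reached by 41 members in the liver, 26 in the kidney, 19 in the spleen, 17 in the small intestine, and 15 in the heart. The mean level was highest in the liver for 34 members, and the other 9 were highest in the spleen (C1qa, C1qb, C1qc, Cfp, and C6), the heart (F3, F13a1, and Thbd), or the kidney (Cfb). Scaling the libraries by the trimmed mean of M values (TMM) instead of TPM left the highest organ of each of the 43 members as it was.

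**Figure D1:**
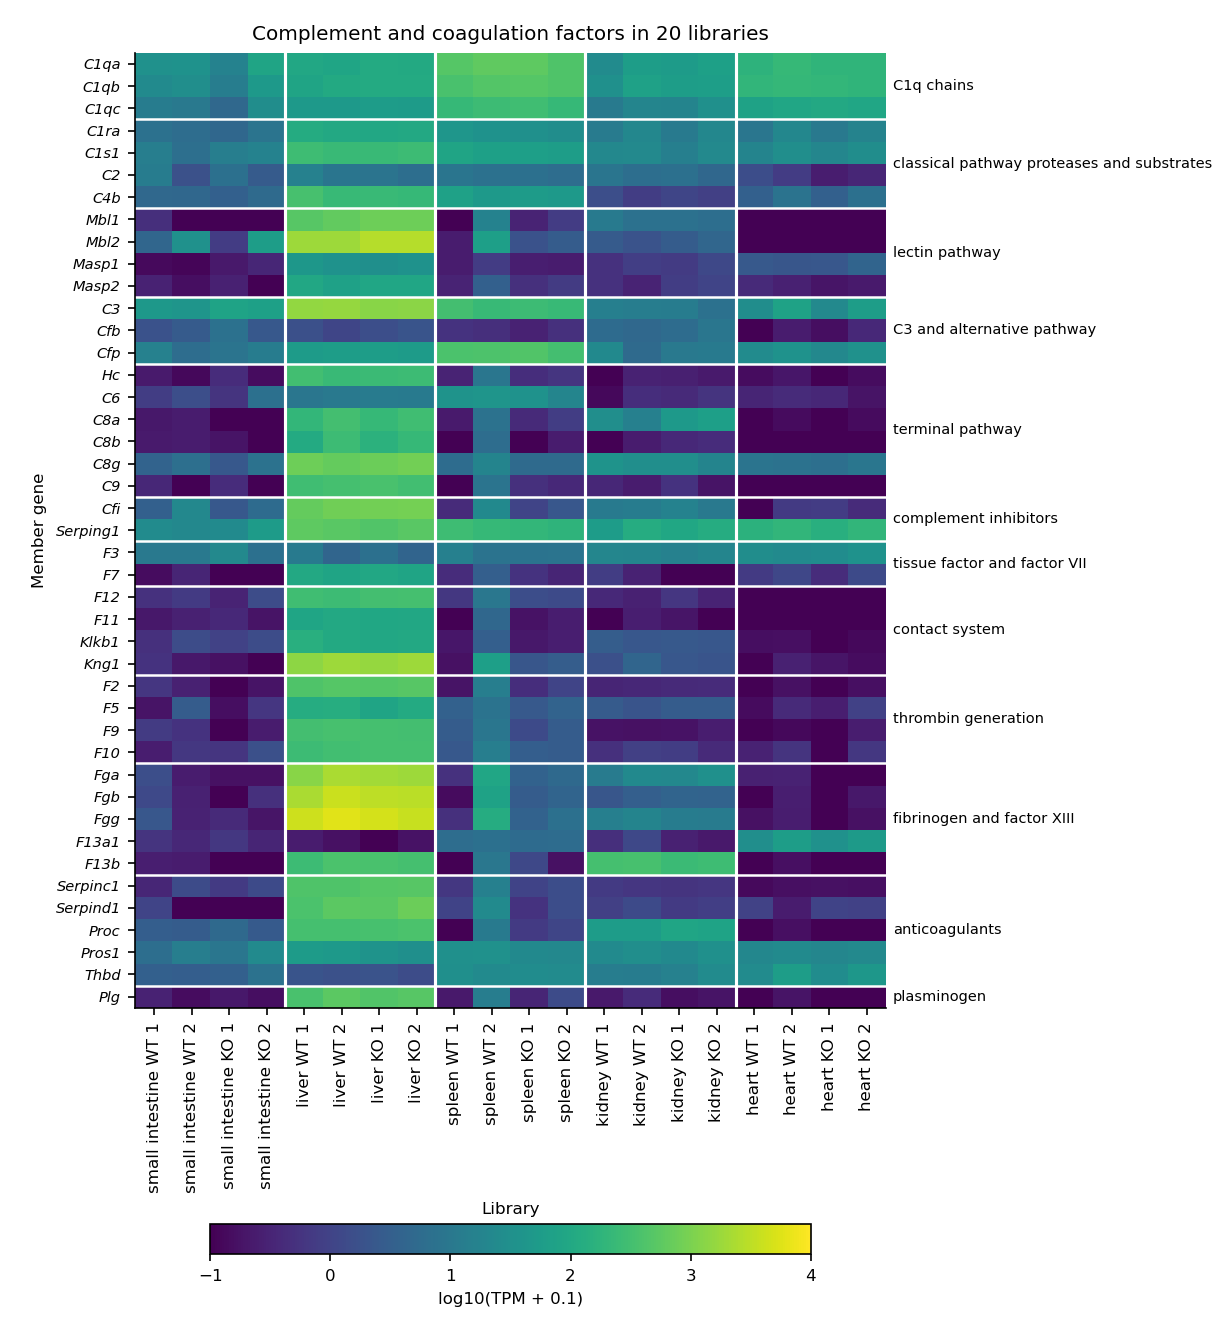
Level of the 43 members (rows, grouped by role) in each of the 20 libraries (columns, by organ, genotype, and replicate), as log10(TPM + 0.1) on a color scale. The 4 liver columns are bright for nearly all rows, F13b and Proc are also bright in the kidney, and spleen WT 2 differs from the other spleen columns in the rows of the liver factors.

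The roles differed in how much of the liver pool they made up. Fibrinogen and factor XIII held 10068 ± 2064 TPM in the liver (SD, n = 4), 41.7% of the summed level of all members. The leading gene was Fgg, the γ chain of fibrinogen, with 4080 and 6054 TPM in WT and 4826 and 3863 in KO, with no separation of the genotypes. Fga and Fgb, which encode the α and β chains and lie beside Fgg on chromosome 3 between 83007724 and 83049863 (GRCm38), stood at 1293 and 2320 against 2034 and 1841 TPM, and at 2328 and 4009 against 3210 and 3052 TPM. Liver WT replicate 1 was lowest for Fga and Fgb, and WT replicate 2 was highest for all 3 chains.

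In the lectin pathway the leading gene was Mbl2, a mannose-binding lectin, with 1833 and 1869 TPM in the WT and 2733 and 2761 in the KO liver. Among the contact system genes Kng1, which encodes the precursor of bradykinin, led with 1420 and 1823 against 1633 and 1845 TPM. C3, the component on which all complement pathways converge, stood at 1539 and 1628 in WT and 1319 and 1334 in KO. In TPM, both KO libraries were above both WT libraries for Mbl2 and below them for C3, and the genotypes overlapped for Kng1. Scaled by TMM instead, the genotypes of C3 overlapped, since 0 of the 3 genes of its role had both KO libraries below both WT libraries.

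The other roles were led by Cfi (807 ± 101 TPM, a protease that inactivates C3b and C4b), C8g (773 ± 79.2 TPM, a chain of the C8 complex), Serpind1 (557 ± 154 TPM, the thrombin inhibitor heparin cofactor II), and F2 (463 ± 37.0 TPM, prothrombin). Plg, the precursor of the fibrin-degrading protease plasmin, had 463 ± 75.6 TPM, and C4b 263 ± 59.2 TPM (SD, n = 4 each). The lowest leaders were C1qb with 105 ± 14.9 TPM and F7, which starts coagulation together with tissue factor, with 93.5 ± 11.4 TPM. In single libraries of WT replicates 1 and 2 and KO replicates 1 and 2, Cfi had 659, 833, 851, and 886 TPM, C8g had 792, 671, 767, and 863, and Serpind1 had 386, 554, 529, and 758. The 4 values of F2 were 412, 476, 465, and 500, those of Plg were 365, 539, 446, and 501, those of C4b were 350, 235, 247, and 220, those of C1qb were 83.2, 107, 115, and 115, and those of F7 were 106, 82.9, 101, and 84.6. In TPM, both KO libraries were above both WT libraries for Cfi and C1qb, and the genotypes overlapped for the other 6 of these genes. Of all liver genes, 17.2% were separated upward and 16.1% downward in CPM. These shares are not on the TPM scale, and a gene that separates on 1 scale need not separate on the other.

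To compare organs, liver libraries of both genotypes were set against those of each other organ in one quasi-likelihood fit of edgeR over all 20 libraries, and a gene was called where it differed more than 2-fold with an adjusted p (Benjamini-Hochberg) under 0.1. Against the small intestine 39 of 43 members were higher in the liver, 1 was lower, and 3 were not called, where 19.3% of all 23159 genes tested were higher and 27% lower. Against the spleen 35 were higher and 5 lower (22.5% and 29.7% of all genes), against the kidney 38 and 3 (13.6% and 21.1%), and against the heart 37 and 3 (19.8% and 24.8%). The median log2 difference between the liver and the other organ over the members was 7.995 for the small intestine, 8.11 for the spleen, 6.82 for the kidney, and 10.4 for the heart, and over all genes it was between -0.24 and -0.06. Members lower in the liver were F13a1 against all 4 organs, Thbd against the spleen, the kidney, and the heart, F3 against the heart, Cfb against the kidney, and C1qa, C1qc, and Cfp against the spleen. In bulk tissue, fewer cells of a type and less RNA per cell cannot be told apart. TPM ratios also stand above those of the fit, by 2.32-fold for the spleen relative to the liver and by 1.51-fold to 1.74-fold for the other organs.

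Mbl1, Mbl2, C8b, C9, F12, and F11 had no counts in any of the 4 heart libraries. Taking 3 counts per library as the limit that a count of 0 allows, Mbl2 was at least 11063-fold higher in the liver and F11, a protease of the contact phase, at least 954-fold. With these 6 genes at their bounds the median log2 difference between liver and heart was 9.90. The bounds cover counting error only.

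C1q was the largest complement signal outside the liver. Its chains are encoded by C1qa, C1qb, and C1qc, which lie side by side on chromosome 4 between 136880129 and 136898803, and their combined level was 1194 ± 157 TPM in the spleen and 483 ± 39.6 in the heart against 258 ± 27.1 in the liver, 129 ± 42.5 in the kidney, and 85.7 ± 54.8 in the small intestine (SD, n = 4 each). In the spleen they made up 47.2% of the members' summed TPM, and in the heart 52.2%.

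For C1qa the spleen libraries had 472 and 593 TPM in WT and 575 and 419 in KO, the heart 168 and 226 against 186 and 188, and the liver 97.5 and 85.0 against 114 and 107. The kidney had 25.6 and 59.98 in WT and 54.4 and 69.2 in KO, and the small intestine 33.2 and 35.8 against 16.03 and 83.6. All 4 spleen values were above all heart values, and all heart values above all liver values, whereas the kidney and the small intestine overlapped.

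C1qb had 366 and 450 TPM in the WT and 477 and 416 in the KO spleen, 198 and 216 against 204 and 186 in the heart, between 83.2 and 115 in the liver as given above, 31.5 and 71.8 against 59.3 and 63.6 in the kidney, and 24.3 and 29.8 against 13.01 and 51.6 in the small intestine. C1qc had 224 and 265 against 298 and 220 in the spleen, 75.3 and 92.0 against 102 and 91.9 in the heart, 48.6 and 50.3 against 57.3 and 54.7 in the liver, 11.5 and 18.7 against 18.3 and 32.3 in the kidney, and 12.5 and 10.2 against 4.89 and 28.0 in the small intestine. The order of the organs by mean was the same for the 3 chains. In the fit the log2 difference between liver and spleen was -1.13 ± 0.47 for C1qa (SE, edgeR adjusted p = 0.0530), -0.79 ± 0.44 for C1qb (adjusted p = 0.146), and -1.02 ± 0.45 for C1qc (adjusted p = 0.0700), and no chain was called between the liver and the heart. Without spleen WT replicate 2, described below, the differences from the spleen were -1.02, -0.69, and -0.94 and none of the 3 was called (edgeR adjusted p = 0.120, 0.276, and 0.143).

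Macrophage markers were also highest in the spleen, and their order in the heart and the liver depended on Lyz2. The summed TPM of 12 such genes was 4179 to 5576 in the spleen, 894 to 1019 in the heart, 559 to 684 in the liver, 172 to 414 in the small intestine, and 164 to 213 in the kidney. At least 11 of the 12 reached a TPM of 1 in each spleen library and all 12 in each liver library, and Lyz2 was the most abundant marker in these 2 organs and in the heart and the kidney. Without Lyz2 the other 11 markers summed to 599 to 774 in the spleen, 335 to 419 in the liver, and 123 to 229 in the heart, so that the liver stood above the heart, the reverse of the order of C1q. The part of macrophages in the levels of C1q was not tested.

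Cfp encodes properdin, which stabilises the C3 convertase of the alternative pathway. It had 387 and 409 TPM in the WT and 443 and 317 in the KO spleen, 56.1 and 60.6 against 61.6 and 56.6 in the liver, and 26.2 and 35.5 against 21.3 and 33.6 in the heart. In the kidney it had 23.1 and 5.37 against 10.3 and 10.8, and in the small intestine 15.5 and 6.08 against 8.46 and 12.6. The spleen stood above every other library, with a log2 difference of -1.49 ± 0.30 between liver and spleen (edgeR adjusted p = 0.00062). C6, a component of the membrane pore, was also highest in the spleen, with 36.9 and 40.6 TPM in WT and 34.6 and 19.1 in KO against 9.25 and 10.5 in WT and 11.99 and 10.8 in KO liver. In the small intestine C6 had 0.707 and 1.51 against 0.472 and 6.88 TPM, and in the kidney and the heart it stayed at or under 0.461 TPM in every library. The difference of C6 between liver and spleen was not called once libraries were scaled by TMM (log2 -0.36 ± 0.68, edgeR adjusted p = 0.698).

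The heart was the highest organ for 3 coagulation genes. F13a1, the catalytic A subunit of factor XIII, which macrophages and megakaryocytes make, had 29.5 and 60.1 TPM in the WT and 33.3 and 53.1 in the KO heart, and 6.08 and 6.93 against 5.59 and 5.63 in the spleen. It had 0.140 and 0.0712 in the WT and 0 and 0.0737 in the KO liver, 0.369 and 1.11 against 0.181 and 0.121 in the kidney, and 0.457 and 0.257 against 0.560 and 0.229 in the small intestine. The log2 difference between liver and heart was -8.73 ± 0.65 (edgeR adjusted p = 8.52e-08), and this subunit stood apart from the B subunit, encoded by F13b, which was a gene of the liver and the kidney.

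F3, tissue factor, had 28.0 and 25.1 TPM in the WT and 26.5 and 35.6 in the KO heart, 19.997 and 18.4 against 15.7 and 19.1 in the kidney, and 10.6 and 10.6 against 22.7 and 7.05 in the small intestine. The spleen had 14.8 and 7.87 against 8.05 and 8.39, and the liver 11.3 and 4.24 against 6.99 and 3.91. The heart values were above all values of the other organs, but the difference from the kidney did not reach a 2-fold change (log2 difference between kidney and heart -0.86 ± 0.34, edgeR adjusted p = 0.0599), whereas that from the liver was called (-1.57 ± 0.35, adjusted p = 0.00175).

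Thbd encodes thrombomodulin, an endothelial receptor that turns thrombin toward the activation of protein C. It had 26.2 and 60.8 TPM in the WT and 26.9 and 44.0 in the KO heart, 30.8 and 24.1 against 27.3 and 25.5 in the spleen, 13.2 and 12.5 against 15.7 and 25.2 in the kidney, 3.35 and 3.07 against 3.38 and 7.42 in the small intestine, and 1.91 and 1.61 against 1.78 and 1.36 in the liver. The heart and the spleen overlapped in TPM, although the log2 difference between spleen and heart in the fit was called (-1.12 ± 0.30, edgeR adjusted p = 0.00623). The liver was lowest in every library, and its log2 difference from the heart was -3.90 ± 0.34 (edgeR adjusted p = 4.13e-07). Both heart libraries of replicate 2 were above both of replicate 1 for F13a1 and Thbd. These libraries were sequenced more deeply, and the labels of their counts alone hold the word pre, which is not explained. The part of depth, or of what this label stands for, was not tested.

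Cfb, the protease of the alternative pathway, was low in each organ. The kidney had 5.44 and 4.72 TPM in WT and 5.70 and 8.95 in KO, the small intestine 1.72 and 2.67 against 7.24 and 2.25, and the liver 1.58 and 0.991 against 1.504 and 1.93. The spleen had 0.433 and 0.363 against 0.204 and 0.398, and the heart 0 and 0.137 against 0.0534 and 0.275. The kidney was above the liver in every library (log2 difference between liver and kidney -1.23 ± 0.48, edgeR adjusted p = 0.0591). The level of Cfb is uncertain, because 79.5% of its exon bases, and 46.9% of those of the neighboring C2, also belong to the readthrough gene Gm20547, and reads in such bases could be left out of the count.

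**Figure D2:**
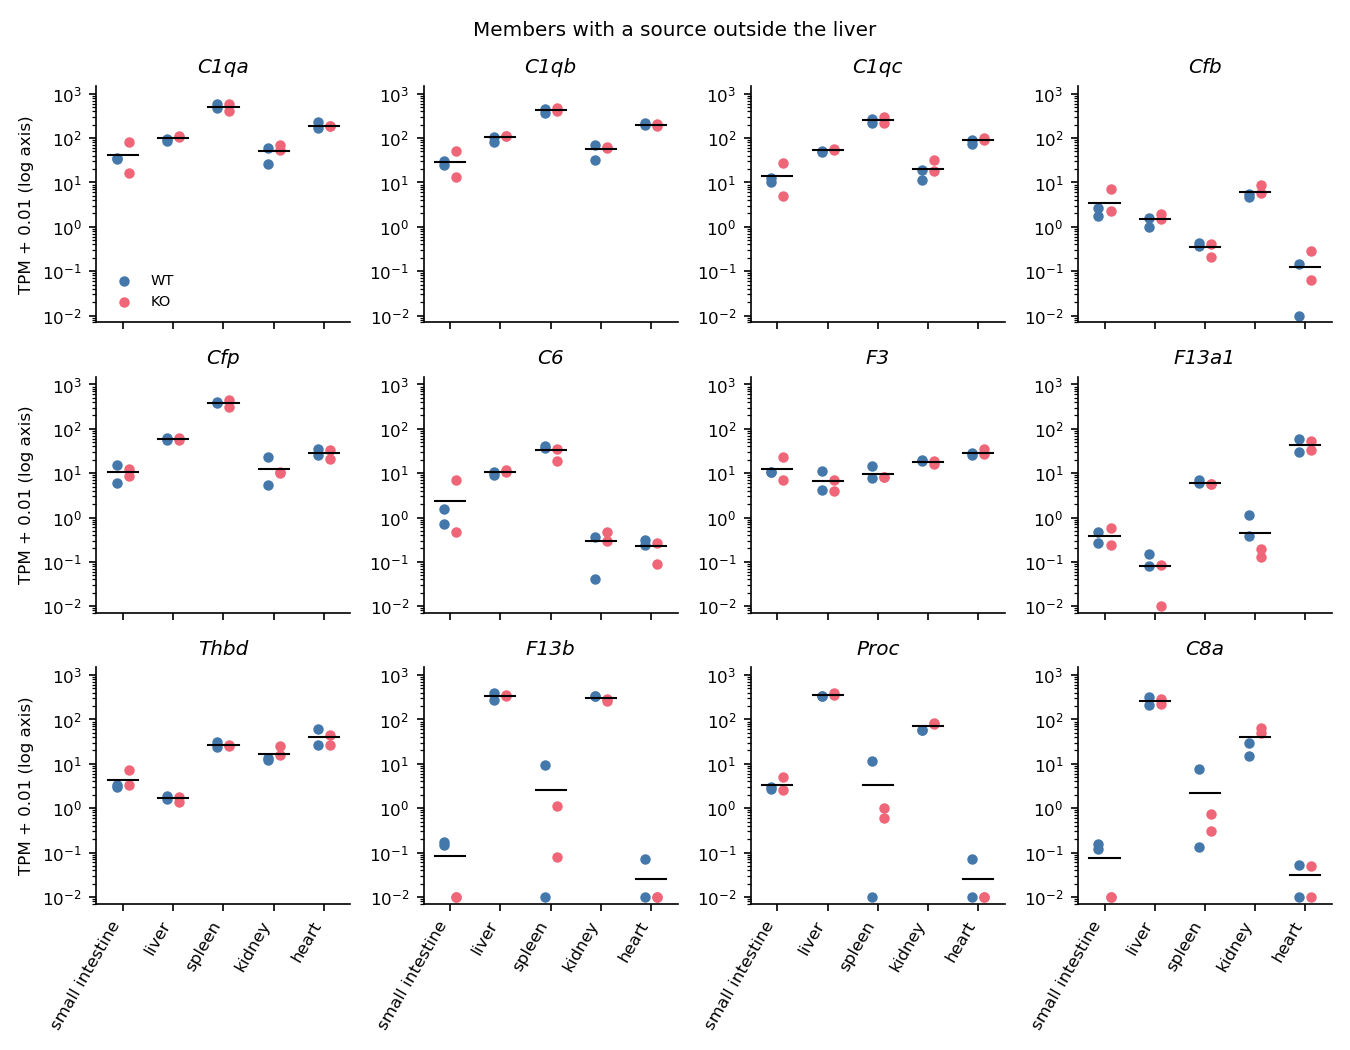
TPM + 0.01 on a log axis for the 9 members whose highest organ was not the liver and for F13b, Proc, and C8a, in 5 organs, with a point for each library (WT blue, KO red) and a line at the mean of the 4 libraries. Spleen leads for the C1q chains, Cfp, and C6, heart for F13a1, F3, and Thbd, and kidney for Cfb, while F13b is about as high in the kidney as in the liver.

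In TPM, F13b was at a similar level in the kidney and the liver, and in the kidney Proc and C8a stood well above their levels in the small intestine and the heart. F13b had 337 and 346 TPM in the WT and 258 and 286 in the KO kidney, against 269 and 390 in the WT and 359 and 342 in the KO liver. It had no more than 0.16 TPM in any library of the small intestine or the heart. The mean in the kidney was 90.2% of that in the liver, the values overlapped, and the difference was not called (log2 difference between liver and kidney 0.98 ± 0.95, edgeR adjusted p = 0.483).

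Proc encodes protein C, the protease that inactivates factors V and VIII. It had 57.6 and 57.9 TPM in the WT and 85.1 and 78.0 in the KO kidney against 339 and 341 in the WT and 350 and 389 in the KO liver, so that the kidney held 19.6% of the liver level (log2 difference 3.18 ± 0.90, edgeR adjusted p = 0.0149). C8a, the α chain of C8, had 29.7 and 15.02 in the WT and 50.2 and 65.4 in the KO kidney against 207 and 321 in the WT and 223 and 294 in the KO liver, and the kidney held 15.3% (log2 difference 3.76 ± 0.79, edgeR adjusted p = 0.00252). Of its partner genes, C8b, the β chain, stayed at or under 0.322 TPM in the kidney. C8g had a mean of 28.6 TPM there, against 40.1 TPM for C8a, which was 3.71% of the liver level of C8g. Among the fibrinogen chains Fga had 12.2 and 23.7 TPM in the WT and 21.2 and 32.4 in the KO kidney, Fgg had 14.3 and 17.7 against 12.6 and 11.7, and Fgb had 2.07 and 3.24 against 3.90 and 3.87. All 3 were called lower in the kidney than in the liver, with Fga at 1.195% of the liver mean. Hepatocyte markers were low in the kidney, with a summed TPM of 758 to 1192 for the 24 genes and Gc as the most abundant, against 254613 to 360701 in the liver.

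Because F13b and C8a were made in both organs and Fga almost wholly in the liver, the sequences before their start sites are shown, with the letters GTTAATNA, which resemble the site of the transcription factor HNF1 of hepatocytes and kidney tubule cells, in capitals on either strand. The sequences are from RefSeq on GRCm38.p6, 5′ to 3′ on the strand of the gene. F13b is shown for chr1:139501457-139501701 (+), C8a for chr4:104876399-104876648 (-), and Fga for the 30 bases of chr3:83026097-83026126 (+) around the match, since a longer annotated transcript of Fga begins upstream of it at 83026076.
F13b: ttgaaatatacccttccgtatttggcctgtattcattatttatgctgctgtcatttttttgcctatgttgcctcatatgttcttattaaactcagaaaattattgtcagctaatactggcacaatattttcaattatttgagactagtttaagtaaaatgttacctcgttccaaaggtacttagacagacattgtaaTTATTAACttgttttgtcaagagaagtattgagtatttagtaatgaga
C8a: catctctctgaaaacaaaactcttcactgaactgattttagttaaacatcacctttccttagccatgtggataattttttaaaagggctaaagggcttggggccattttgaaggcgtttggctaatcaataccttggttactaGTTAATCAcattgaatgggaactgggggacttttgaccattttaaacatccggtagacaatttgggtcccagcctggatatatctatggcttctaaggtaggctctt
Fga: gccaagggtgaTGATTAACctcctgccggt
The matches lay 53 to 46 bases before the RefSeq start in F13b, 107 to 100 in C8a, and 45 to 38 in Fga. Of the 43 members, 32 had a promoter in the RefSeq table (250 bases before to 50 after the start), and GTTAATNA was present in 5 of them (C8a, Cfp, F13b, Fga, and Hc), against 2.54% of all 32851 promoters of this length. The letters TTGCNNAA, which resemble a C/EBP site, were present in 10 of the 32 (10.8% of all promoters), and TGNACTTTG, which resemble an HNF4 site, in 2 (1.41%), and neither was present in F13b or C8a. The motifs, and these 3 genes, were chosen after the values had been seen, and a match is a description of the letters only.

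In the small intestine C3 had 47.0 and 39.6 TPM in WT and 79.5 and 69.4 in KO. Mbl2 differed by replicate number, with 4.47 and 33.3 TPM in WT and 0.674 and 61.0 in KO. Both libraries of replicate 2 were high and both of replicate 1 low. These libraries also differed in markers of the gut segment: 6 genes of the proximal intestine summed to 140 and 24450 TPM in WT and 819 and 34333 in KO, with Fabp1 the most abundant, and 6 genes of the distal intestine to 47103 and 860 against 47120 and 933. Pdx1 was at 0 in both libraries of replicate 1 and Osr2 in both of replicate 2. The part of the segment in Mbl2 was not tested.

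A check of each library of the other organs for liver transcripts set spleen WT replicate 2 apart, a library that had been named for this check beforehand. For this check, 27 members were taken as restricted to the liver, with a mean TPM in the liver at least 10 times that in the small intestine, the kidney, and the heart, and the level of each was expressed as a percentage of its mean in the 2 WT liver libraries. The median over the 27 genes was 0.0814% in spleen WT replicate 1, 3.33% in WT replicate 2, 0.129% in KO replicate 1, and 0.280% in KO replicate 2. It was between 0.0417 and 0.131% in the small intestine, between 0.168 and 0.255% in the kidney, and between 0 and 0.0185% in the heart, the organs that the choice of the 27 genes had used. In CPM after TMM the medians in spleen WT replicates 1 and 2 and KO replicates 1 and 2 were 0.0359, 1.49, 0.0607, and 0.127%.

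Within spleen WT replicate 2 the quartiles of the 27 genes were 2.77 and 4.74% of the liver level, and the range ran from 1.74% for Masp1 to 26.8% for C1s1. The high end belonged to genes that every spleen library had: C1s1, a protease of the C1 complex, stood at 32.2, 26.8, 25.3, and 23.5% of the liver in WT replicates 1 and 2 and KO replicates 1 and 2, C4b at 24.5, 16.8, 19.3, and 16.5%, and C3 at 20.6, 14.8, 17.1, and 14.6%. For these 3 genes WT replicate 1 was highest. Of the 27 genes, 24 were highest in WT replicate 2, and of the 16 other members 7 were.

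The members that differed most between this library and the rest of the spleen, in TPM, were Fgg, C1qa, Fga, Fgb, Mbl2, and Kng1. Fgg had 0.402 and 127 TPM in the WT and 3.58 and 6.95 in the KO spleen, Fga 0.406 and 92.2 against 3.64 and 5.06, and Fgb 0.0401 and 75.8 against 2.77 and 3.93. Mbl2 had 0.140 and 67.4 against 1.74 and 2.70, and Kng1 0.0705 and 67.5 against 2.05 and 2.904. For these 5 genes WT replicate 2 was far above the other libraries and WT replicate 1 was lowest, whereas C1qa, at 593 TPM against 419 to 575, differed far less in proportion. F13b and Proc, which the kidney also expressed, were highest in WT replicate 2 as well, with 0 and 9.31 against 1.11 and 0.0684 TPM for F13b, and 0 and 11.6 against 0.599 and 1.01 for Proc. Markers of the kidney tubule set KO replicate 1 apart instead, with a summed TPM of 3.59 and 2.02 in WT and 185 and 2.74 in KO for 8 genes, of which Kap was the most abundant (174 TPM in KO replicate 1), 5 reached a TPM of 1 in KO replicate 1 and 1 in each other library, and Aqp2 and Slc22a6 were at 0 in the other 3 libraries. F13b was higher in this library, with 34 counts, than in KO replicate 2, with 2, and the part of kidney transcripts was not tested.

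The hepatocyte list, which holds no member, gave the same order. All 24 of its genes reached a TPM of 1 in spleen WT replicate 2, against 10, 19, and 22 in WT replicate 1 and KO replicates 1 and 2, and their summed TPM was 9414 against 35.5, 324, and 453. Alb, the most abundant of them, had 6.26 and 4498 TPM in WT and 145 and 213 in KO, and Ambp and Cyp2c29 were at 0 in WT replicate 1. The median of the 24 genes as a percentage of the WT liver was 0.0148, 3.40, 0.115, and 0.176% in WT replicates 1 and 2 and KO replicates 1 and 2. The origin of these transcripts was not tested.

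**Figure D3:**
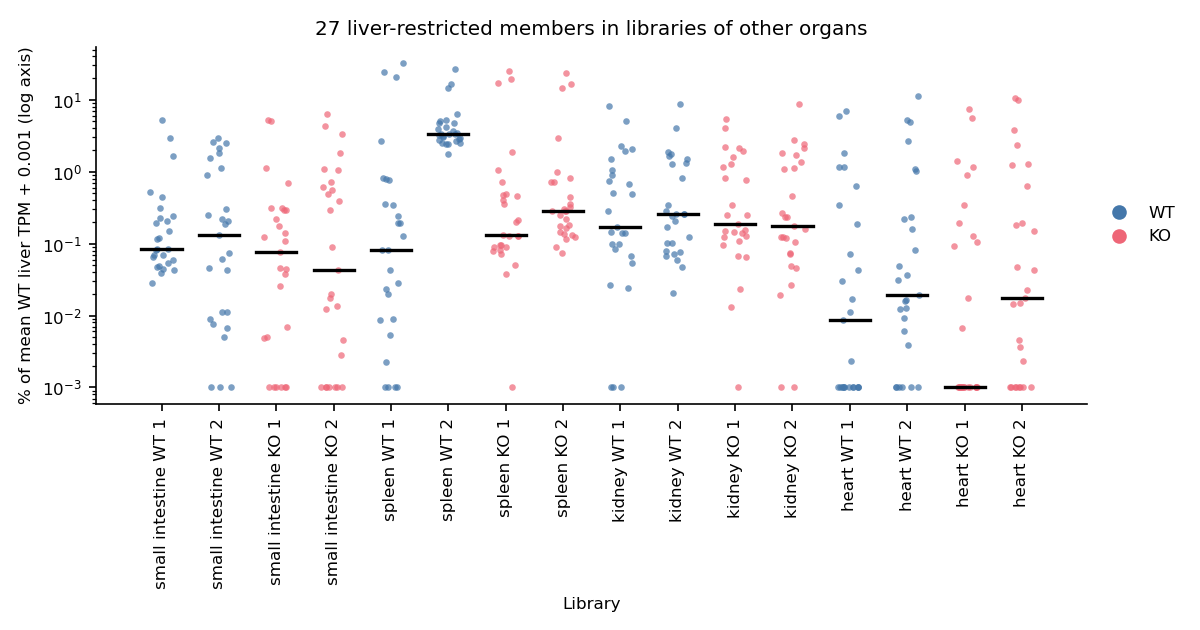
Level of the 27 liver-restricted members in each of the 16 libraries of other organs, as a percentage of the mean WT liver TPM plus 0.001 on a log axis, with a point for each gene (WT blue, KO red) and a line at the median. The median of spleen WT 2 is 3.33%, and those of the other 15 libraries lie at or under 0.280%.

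The library bears on every spleen comparison of plasma factors. Without it 35 members were higher in the liver than in the spleen and 3 lower (20.7% and 27.2% of all 24727 genes tested), and the median log2 difference between liver and spleen was 9.30 in place of 8.11. These values were computed after the data had been seen.

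The comparison of KO with WT in each organ asked whether loss of Nsun6 changed the factors at their source or elsewhere. No member was called in any organ. Over all genes tested 0.0509% were called higher and 0% lower in the liver, 0.218% and 0.00531% for the spleen, and 0% each way in the small intestine, kidney, and heart. The filter on low counts passed 42 members in the liver, 40 for the spleen, 36 for the kidney, 28 for the small intestine, and 22 for the heart. At an unadjusted p under 0.05 there were 2, 1, 2, 1, and 1 members in these organs by edgeR, and 2, 4, 2, 2, and 1 by DESeq2, where 2.64%, 3.4%, 0.473%, 2.65%, and 0.59% of all genes with counts reached it. DESeq2 called no member, and called 0.129% of all genes higher and 0.0781% lower in the liver, 0.67% and 0.0267% for the spleen, 0.126% and 0.0525% for the small intestine, 0% and 0.0107% for the heart, and 0% each way in the kidney. The lowest adjusted p of a member, in edgeR, was 0.883, for Pros1 in the spleen. The biological coefficient of variation was 0.238 in the liver, 0.310 for the spleen, 0.322 for the heart, 0.457 for the kidney, and 0.602 for the small intestine, so that the liver comparison was the most precise.

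In the liver most members had small log2 fold changes above 0 in KO. The log2 fold change was above 0 for 32 of the 42 tested and below 0 for 10, where 50.6% of all genes were above 0, and its median was 0.20 against 0.00 for all genes. The median turned to -0.03 without WT replicate 1 and rose to 0.52 without WT replicate 2. The 24 hepatocyte markers, none of them a member, lay the same way, with 19 above 0, 5 below, and a median of 0.34, and their summed TPM was 254613 and 360701 in WT and 342109 and 329224 in KO, lowest in WT replicate 1 and with Alb the most abundant. WT replicate 1 also stood apart in cardiomyocyte markers, of which 8 summed to 22.9 and 3.32 TPM in WT and 1.08 and 0.976 in KO, led by Myl2 in all but KO replicate 2, with 5, 1, 0, and 0 reaching a TPM of 1 and Nppa at 0 throughout. All 5 tested were lower in KO at an unadjusted p under 0.05 (median log2 fold change -3.13), and none was called. The part of either list in the members' values was not tested. In CPM, both KO libraries were above both WT libraries for 16 members and below them for 3, in a comparison where 17.2% and 16.1% of all genes did so. Of the members with p under 0.05 and separated genotypes (at this p 2.74% of all genes were higher and 1.96% lower), Mbl2, with the values given above, had a log2 fold change of 0.74 ± 0.26 (SE, unadjusted p = 0.0209, edgeR adjusted p = 0.983). C1qa was the other, at 0.46 ± 0.18 (unadjusted p = 0.0326, edgeR adjusted p = 0.999). Neither passed the adjustment. Mbl1, the second mannose-binding lectin, had 501 and 639 TPM in WT and 795 and 776 in KO, with a log2 fold change of 0.61 ± 0.28 (unadjusted p = 0.0613, edgeR adjusted p = 0.999). Without liver WT replicate 2, whose fibrinogen levels were the highest, C8b, Mbl1, and Serpind1 were called higher in KO, in a fit that called 0.912% of all genes higher.

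In the spleen the direction of the members depended on WT replicate 2. With all 4 libraries 35 of the 40 members tested were below 0 and 5 above (51.3% of all genes were above 0), and the median log2 fold change was -1.39 against 0.01 for all genes. This median was -2.59 without WT replicate 1, and -0.34 over the 26 members with at least 10 counts in every spleen library. For Fga the log2 fold change was -3.30 ± 2.91, and for Mbl1 -4.07 ± 3.16, with errors of nearly the size of the change. Without WT replicate 2, 29 of 41 members were above 0 (52.8% of all genes), the median was 0.40, and Kng1, Fga, Fgb, and Fgg were called higher in KO by 5.27, 3.61, 6.48, and 3.89 on the log2 scale (edgeR adjusted p = 0.0159, 0.0199, 0.00597, and 0.0253), where 1.32% of all 20006 genes were called higher and 0.03% lower. These 4 calls rest on the single library WT replicate 1, which is assumed to vary like the KO libraries and which had the lowest level of hepatocyte markers of the 4. Without WT replicate 1, on the other hand, 21 members were called lower in KO, where 1.51% of all genes were. Hepatocyte markers were highest in WT replicate 2, as were all 21 of these members, and their part in the changes was not tested.

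Members at a high level in every spleen library varied less. Pros1, the cofactor protein S of protein C, had 32.9 and 33.7 TPM in the WT and 23.7 and 21.4 in the KO spleen, with a log2 fold change of -0.41 ± 0.16 (unadjusted p = 0.0379, edgeR adjusted p = 0.883), at a p under 0.05 that 0.828% of all genes reached in this direction and 4.32% in the other. It was the sole member with this p in the spleen, and without WT replicate 2 its log2 fold change was -0.35 ± 0.27. Erythroid markers moved the other way in these libraries: the 8 genes summed to 29029 and 39314 TPM in WT and 59095 and 56065 in KO, with Hba-a1 the most abundant in all but KO replicate 2, where it was Hbb-bt. All 8 had an unadjusted p under 0.05, with a median log2 fold change of 1.44, and Alas2, Slc4a1, and Epb42 were among those called higher (edgeR adjusted p = 0.0839, 0.0656, and 0.0656). All 6 adipocyte markers tested were also above 0, with a median of 1.42 and 1 called, Fabp4. Other lists lay below 0 as Pros1 did: endothelial markers for 7 of 7 tested (median -0.34) and platelet and megakaryocyte markers for 6 of 6 (median -0.51). Stromal markers were below 0 for 6 of 8 (median -0.39). The part of these cells in the value of Pros1 was not tested. C1qb had a log2 fold change of 0.28 ± 0.18, C1qc one of 0.23 ± 0.20, and C1qa one of 0.05, and none reached an unadjusted p of 0.05. Without WT replicate 2 the log2 fold changes of C1qb, C1qc, and C1qa were 0.48, 0.40, and 0.27.

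**Figure D4:**
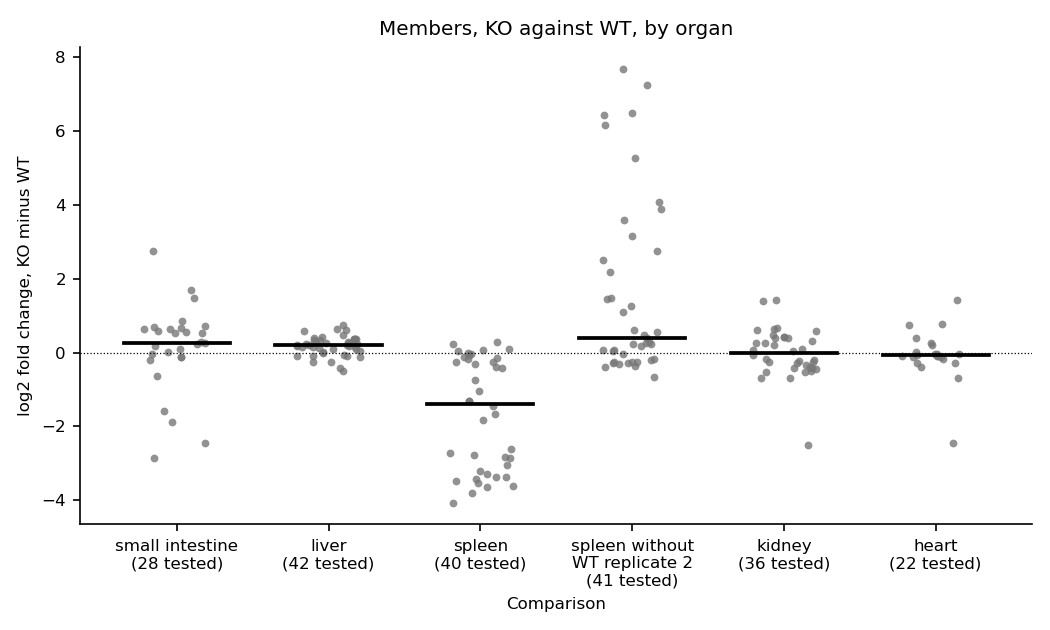
Log2 fold change of KO over WT of each member tested (points) and their median (line) in 5 organs, and in the spleen without WT replicate 2. The medians are -1.39 in the spleen, 0.40 without spleen WT replicate 2, and 0.27, 0.20, -0.01, and -0.07 for small intestine, liver, kidney, and heart.

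In the kidney 18 of the 36 members tested were above 0 and 18 below (47% of all genes were above 0), with a median of -0.01. Leaving out WT replicate 1 moved this median to -0.35, and it rose to 0.70 when WT replicate 2 was left out instead. C8a had the lowest unadjusted p of any member in any organ, with a log2 fold change of 1.42 ± 0.32 from 29.7 and 15.02 TPM in WT to 50.2 and 65.4 in KO (unadjusted p = 0.00549, edgeR adjusted p = 0.9999), at a p under 0.05 that 0.405% of all genes reached in this direction. It was called when either WT replicate was left out, at 1.55 without replicate 1 and 1.32 without replicate 2. These fits called 14.3% and 1.37% of all genes higher in KO. F13a1 had a log2 fold change of -2.51 ± 0.96 in the kidney (unadjusted p = 0.0432, edgeR adjusted p = 0.9999), at 0.369 and 1.11 TPM in WT and 0.181 and 0.121 in KO, or 23, 82, 12, and 8 counts. F13b, Proc, and Fga had log2 fold changes of -0.40 ± 0.40, 0.42 ± 0.35, and 0.40 ± 0.62 in the kidney and did not pass the test. Of the markers in the kidney, none of them called, 7 of 7 adipocyte genes tested were below 0 (median -1.94), with sums of 173 and 185 TPM in WT and 116 and 107 in KO, led by Fabp4, and Plin1, Lep, and Ucp1 at 0 in KO replicate 2. Endothelial markers were above 0 for 6 of 7 (median 0.51), with sums of 185 and 209 against 191 and 299, led by Emcn, and erythroid markers for 8 of 8 (median 0.34), with sums of 1320.2 and 1445 against 2051 and 1737, led by Hba-a1. WT replicate 2 stood apart in genes of the tubule, with Slc34a1 at 3374 and 245 TPM in WT and 1696 and 933 in KO, and Slc12a3 at 1226 and 44.7 against 453 and 425, whereas the sum of the 8 tubule markers, led by Kap, was 87407 and 124629 against 113146 and 139333. Platelet and megakaryocyte markers were below 0 for 4 of 4 tested (median -0.55), and hepatocyte markers for 18 of 23 (median -0.68). The part of these cells in the values of C8a and F13a1 was not tested.

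In the small intestine 19 of 28 members were above 0 (50.4% of all genes), with a median of 0.27, which turned to -0.87 without KO replicate 2 and was 0.51 without WT replicate 2. With the replicate number as a block the median was 0.05, and by DESeq2 it was -0.01. Markers of the gut segment differed by replicate number in both genotypes, as given above. Markers of other cells differed between these libraries, with none called by edgeR. The 7 endothelial markers were all above 0 (median 1.22) and summed to 10.97 and 9.84 TPM in WT and 11.1 and 32.3 in KO, most often with Pecam1 the most abundant. Of 8 stromal markers 7 were above 0 (median 0.75), with sums of 132 and 52.6 against 209.8 and 96.7, led by Dcn. The 7 cardiomyocyte markers tested were above 0 (median 4.29), with sums over the list of 8.21 and 9.73 against 521 and 14.1, highest in KO replicate 1 and led there by Myl2, and Nppa was at 0 in both WT libraries. The 8 lymphocyte markers were below 0 (median -1.79), with sums of 367 and 74.9 against 8.25 and 112, and Cd79a and Cr2 at 0 in KO replicate 1. Their part in the members' values was not tested. Masp1, a protease of the lectin pathway, was the sole member with an unadjusted p under 0.05 (1.77% of all genes were higher at this p), at 0.0330 and 0.0176 TPM in WT and 0.117 and 0.245 in KO, which were 4, 2, 11, and 25 counts, so that its log2 fold change of 2.77 ± 1.03 (unadjusted p = 0.0491, edgeR adjusted p = 0.9999) rests on few reads. In the heart 7 of 22 members were above 0 (48.2% of all genes), with a median of -0.07, which turned to 0.15 without WT replicate 2 and to 0.01 without KO replicate 2. C2 had 1.42 and 0.660 TPM in WT and 0.156 and 0.237 in KO, from 40, 33, 4, and 13 counts, with a log2 fold change of -2.45 ± 0.82 (unadjusted p = 0.0199, edgeR adjusted p = 0.9999). It was the sole member of the 22 with a p under 0.05, in a comparison where 0.517% of all genes were lower at such a p and 0.186% higher. Lymphocyte markers in the heart were below 0 for 7 of 7 tested (median -2.22), with sums over 8 genes of 4.98 and 38.4 TPM in WT and 6.41 and 6.39 in KO, led by Cd79b and highest in WT replicate 2, and adipocyte markers were below 0 for 6 of 8 (median -1.28), with sums of 837 and 1191 against 1029 and 967, led by Fabp4. Their part in C2 was not tested. In CPM, both KO libraries of the heart were above both WT libraries for 1 member and below them for 2, against 7.56% and 9.66% of all genes.

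**Figure D5:**
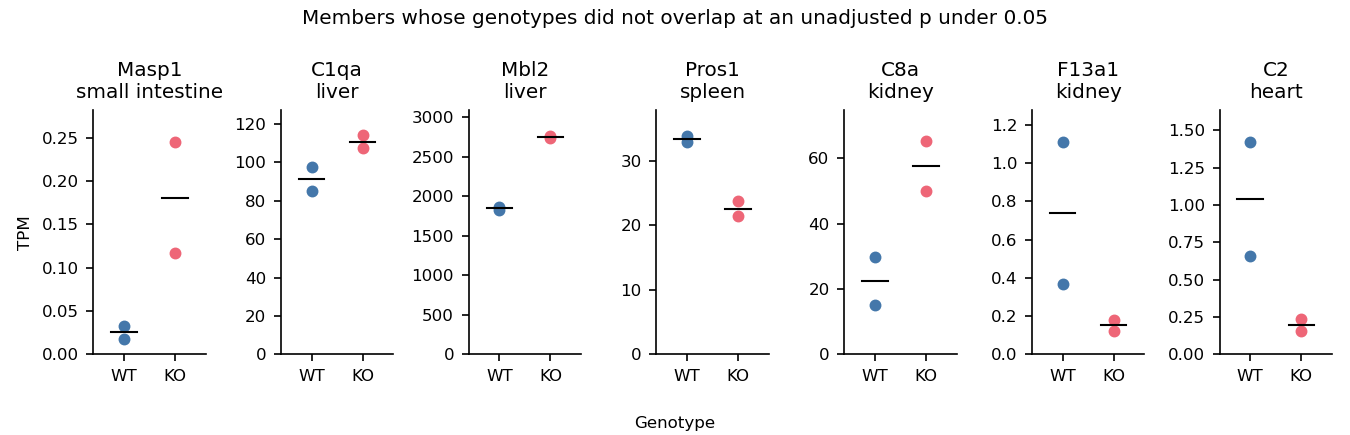
TPM in the 2 WT (blue) and 2 KO (red) libraries, with a line at the mean, for the 7 pairs of member and organ with an unadjusted p under 0.05 and separated genotypes. Each axis starts at 0, Masp1 in the small intestine and F13a1 in the kidney lie near or under 1 TPM, and none of the 7 passed the adjustment over all genes.

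Whether the KO effect on a member differed between organs was tested by the interaction of organ and genotype over all 20 libraries. Of the 43 members 0 were called by edgeR, as were 0% of the 23159 genes tested, and 3 had an unadjusted p under 0.05 (Masp1 with 0.0307, F9 with 0.0405, and F7 with 0.0465), where 2.31% of all genes did. DESeq2 called no member, where it called 0.295% of 36620 genes, and gave 7 members an unadjusted p under 0.05, where 2.65% of the genes had one. Without the filter on low counts edgeR called 27 members where 2.66% of 36620 genes were called, or 16 where 1.9% of 36439 were when spleen WT replicate 2 was also left out, and in both fits the estimated prior degrees of freedom were infinite, against a median of 4.28 with the filter.

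The rest of the pathway was followed in 84 further genes of complement, coagulation, fibrinolysis, and the acute phase response. Of the 82 that passed the filter, 49 were higher in the liver than in the small intestine, 45 than in the spleen, 47 than in the kidney, and 44 than in the heart, and 14, 21, 15, and 19 were lower. Over all genes 19.3%, 22.5%, 13.6%, and 19.8% were higher and 27%, 29.7%, 21.1%, and 24.8% lower. Of 18 acute phase genes 16 were higher in the liver than in the small intestine and 17 than in each other organ. In the list of 33 coagulation and fibrinolysis genes tested, as many were lower as higher in the liver against the spleen and against the heart (14 each).

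The kidney stood out by Kng2, the paralog of Kng1, with 756 and 848 TPM in WT and 837 and 746 in KO, against 279 and 325 in the WT and 324 and 328 in the KO liver. All kidney values were above all liver values in TPM, but the difference was not called in the fit (log2 difference between liver and kidney -0.54 ± 0.90, edgeR adjusted p = 0.724). Reads shared by Kng1 and Kng2, or by C4b and C4a, could be split or left out by the counting. Plau, the urokinase that activates plasminogen, had 311 and 345 against 459 and 614 TPM in the kidney and no more than 1.39 in the liver. Gas6, a vitamin K-dependent protein related to protein S, had 405 and 131 against 327 and 213 TPM in the kidney, and both genes were called lower in the liver (log2 -7.81 ± 0.37 and -2.40 ± 0.30).

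In the spleen the highest further genes were Clu, a fluid-phase inhibitor of the complement pore (552 and 299 TPM in WT, 429 and 187 in KO), the complement receptor gene Cr2 (229 and 129 against 156 and 176), and the ficolin gene Fcna (119 and 168 against 214 and 167). In the heart they were Clu (200 and 288 against 200 and 308), the membrane inhibitor gene Cd59a (181 and 168 against 175 and 168), and Cfd, the adipocyte protease factor D (1.79 and 381 against 7.53 and 153). Cfd was high in both libraries of replicate 2. The 8 adipocyte markers summed to 837 and 1191 TPM in the WT and 1029 and 967 in the KO heart, most of it Fabp4, and without Fabp4 the other 7 summed to 113 and 432 against 121 and 152, in the order of Cfd. Adipoq had 0.897 and 92.6 TPM against 2.30 and 27.1, Lep was at 0 in both libraries of replicate 1, and the part of adipocytes in Cfd was not tested. In the small intestine they were Mcfd2 (245 and 298 against 269 and 332), Saa1 (1037 and 0.175 against 61.7 and 0.0777), and Cd55, which speeds the decay of the C3 convertase (62.9 and 42.3 against 361 and 69.3).

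With all libraries none of the 84 genes was called between KO and WT in any organ by edgeR or DESeq2. These counts rest on single libraries in 3 organs, where some of the genes were called in fits that left out a library. Without spleen WT replicate 2, C4bp, Cfhr2, Vtn, Kng2, and Pzp had log2 fold changes of 7.94, 8.56, 9.42, 8.09, and 4.03 in the KO spleen. Without spleen WT replicate 1 the same genes were lower in KO, and Cfd was higher. Without liver WT replicate 2, Apcs, Fcna, Hp, Hpx, Serpina3n, and Vtn were among the genes called higher. In the kidney genes were called only in fits without WT replicate 1, WT replicate 2, or KO replicate 1, each with a single library left in a group. At an unadjusted p under 0.05, 3 were higher and 2 lower in the liver, 2 and 4 for the spleen, 1 and 0 for the kidney, 0 and 1 for the heart, and 2 and 0 for the small intestine, out of 72, 74, 62, 58, and 62 tested. Of all genes 2.74% were higher and 1.96% lower at this p in the liver, 4.32% and 0.828% for the spleen, 0.405% and 0.234% for the kidney, 0.186% and 0.517% for the heart, and 1.77% and 0.617% for the small intestine. With separated genotypes these were Cd59a and Colec10 in the small intestine, C1rl, Fcna, Gas6, Cd55, and F2r in the liver, and Clu in the kidney. In the spleen they were Cd59b, Fcna, Colec11, Vwf, Thbs1, and Itga2b. In the liver Fcna had 50.6 and 60.2 TPM in WT and 75.2 and 83.4 in KO (log2 fold change 0.67 ± 0.24, unadjusted p = 0.0215, edgeR adjusted p = 0.983), and in the spleen its log2 fold change was 0.55 ± 0.23 (unadjusted p = 0.0456, edgeR adjusted p = 0.939). Vwf, Thbs1, and Itga2b, genes of platelets, megakaryocytes, and endothelium, had log2 fold changes of -0.68, -0.75, and -0.57 in the spleen. The summed TPM of 7 platelet and megakaryocyte markers there, of which Itga2b is 1, was 1032 and 1486 in WT and 700 and 967 in KO, with Ppbp the most abundant, 6 of 7 detected in each library, and Gp1bb at 0. The 7 endothelial markers, all detected in each library and with Pecam1 the most abundant, summed to 180 and 164 TPM in WT and 146 and 107 in KO, and all 7 had log2 fold changes below 0, with a median of -0.34. The part of either cell type was not tested.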

How the data were processed

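The authors trimmed the reads with cutadapt, aligned them with HISAT2 2.1.0, counted them per Ensembl GRCm38 gene with featureCounts 2.0.1, and deposited raw counts that were not normalized, next to exon lengths (an other value, in base pairs). The labels name mm10 as the genome, and the methods GRCh38. The stored counting command holds no strand or pair option, unlike the methods, so mates may have been counted separately and antisense partners cannot be told apart. The authors did not pool replicates. From the counts, TPM and CPM after TMM normalization were computed, and edgeR 4.0.16 in R 4.3.3 was run with filterByExpr and the robust quasi-likelihood test, for each organ separately (KO against WT) and over all 20 libraries (organs, and the interaction), with Benjamini-Hochberg adjustment. The thresholds for a call (a 2-fold change and an adjusted p under 0.1) follow the study's methods, whose DESeq2 (1.42.0 here) was an alternative. SE was computed from the fold change and the F statistic, as log2 fold change over root F. The spread between 2 replicates, not depth, limits precision, and intervals for counts cover counting error only.

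The other alternatives were other size factors, other filters and thresholds, a joint fit of the organs, a replicate block, and fits that leave out single libraries. The fits were tested on simulated data. Every-library values are given for members with an unadjusted p under 0.05 and separated genotypes in CPM, those highest outside the liver, the leading member of each role in the liver, and those moved most by spleen WT replicate 2. Of the other pathway genes they are given for the 3 highest in each organ outside the liver, and genes with such a p are named. The members and lists were chosen with earlier results of these data known. The exon bases of Masp2 (54.9%, with Tardbp), Klkb1 (43.2%), and Serpinc1 (34.4%) overlap other genes, so that their levels are uncertain.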

Additional observations from a re-analysis of the deposited data

Results flagged for a closer look

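In 25 groups of 4 libraries, of which chance flags about 1 in 20, a library stood apart from the other 3 by more than Dixon's critical value in 2. The summed TPM of the members in the small intestine was 465.7 in KO replicate 2 against 232 to 267 in the other 3 libraries. In TPM, the median share of liver transcripts in the spleen was 3.33% of the WT liver level in WT replicate 2 against 0.0814 to 0.280% in the other 3. Spleen WT replicate 2 had been named beforehand for a check of liver transcripts, so that this flag is no independent finding and the chance rate does not apply to it.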

How the results depend on the processing

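Precision was limited by 2 replicates per group. Among the fold changes of the genes named by the rule for KO against WT, each in its own organ, 202 values under the alternatives kept their direction and their side of the threshold and 5 passed it where the reported fit did not: with kidney WT replicate 1 left out, C8a (1.55) and F13a1 (-3.25), with kidney WT replicate 2 left out, C8a (1.32) and Clu (1.39), and with liver WT replicate 2 left out, Fcna (1.05). Members outside that rule changed as follows.

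Leaving out each library in turn, 0 to 3 members were called higher in KO in the liver (C8b, Mbl1, and Serpind1 without WT replicate 2, where 0.912% of all genes were called higher) and 0 lower. In the spleen 0 to 4 were higher (Fga, Fgb, Fgg, and Kng1 without WT replicate 2, where 1.32% were) and 0 to 21 lower (21 without WT replicate 1, where 1.51% were). In the kidney 0 to 6 were higher, namely C8a without WT replicate 1, where 14.3% of all genes were, and C1qa, C1qb, C1qc, C8a, Fga, and Serping1 without WT replicate 2, where 1.37% were, and 0 to 2 lower (F13a1 and Kng1 without WT replicate 1, where 1.81% were). The lone WT library is then assumed to vary like the KO libraries. Against the spleen 3 to 5 members were lower in the liver (3 without liver WT replicate 1, liver KO replicate 2, spleen WT replicate 2, or spleen KO replicate 1), and against the kidney 1 to 3 (1 without liver WT replicate 2, liver KO replicate 1, or kidney WT replicate 2).

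With no filter on low counts 1 member, F9, was lower in the KO spleen, where 0.177% of 29979 genes were lower and 0.867% higher, and the interaction called 27 members of 43 (973 of 36620 genes), or 16 (693 of 36439) with spleen WT replicate 2 left out, a setting chosen after seeing the data. A minimum of 10 counts in every library left 13 members, of which 11, 7, 11, and 8 were higher in the liver than in the small intestine, the spleen, the kidney, and the heart, and 0, 4, 1, and 2 lower, where 2205, 2739, 1410, and 2140 of all 11468 genes were higher and 2345, 2647, 1785, and 2469 lower. The median log2 differences of these 13 members were 3.05, 1.77, 3.06, and 1.66. At a fold change over 10, against the same organs in this order, 32, 29, 30, and 34 members were higher in the liver and 0, 1, 0, and 2 lower. Of all 23159 genes 1584, 2122, 1252, and 1993 were then higher and 3278, 3457, 2541, and 2710 lower. With WT libraries alone 38, 34, 35, and 37 members were higher and 0, 5, 2, and 3 lower. Of all 21742 genes 3474, 4480, 2165, and 3498 were then higher and 4333, 4924, 3192, and 4267 lower.

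As a ratio of summed TPM over the 27 liver-restricted members, the value was 1.95% in spleen KO replicate 1 and 1.78% in KO replicate 2. It was 4.53% in WT replicate 2 and 2.30% in WT replicate 1. This ratio includes C1s1, C4b, and C3, which stood at 14.6 to 32.2% of the WT liver in every spleen library, so that it is no measure of liver transcripts alone. In CPM after TMM the median share was 0.127% in KO replicate 2, against 1.49% in WT replicate 2. The highest of the 12 libraries of other organs was 0.126% with the hepatocyte list and 0.793% as a ratio of sums. Spleen WT replicate 2 was highest under each of the 4 alternatives. The cause of these changes was not tested.

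With the replicate number as a block 0 members were called between KO and WT in each organ, and 39, 35, 38, and 37 were higher in the liver than in the small intestine, the spleen, the kidney, and the heart, so that the block changed no call count. The members' median log2 fold change with the block was 0.05 in place of 0.27 in the small intestine and -0.76 in place of -1.39 in the spleen, and by DESeq2 it was -0.01 in the small intestine. The numbers do not pair the samples by their labels. The difference between replicates 1 and 2 correlated across genes between WT and KO with r = 0.57 in the small intestine, 0.37 for the heart, 0.13 for the kidney, 0.04 for the liver, and 0.01 for the spleen, and genes are not independent replicates.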
